A study of Mus musculus with 4 samples.

Results

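The genes described here are 9 synaptic adhesion genes, of the 34968 gene symbols that all libraries shared. They are Nrxn2 and Nrxn3 (neurexins), Cntnap2 (a neurexin-like protein), Nlgn1 and Nlgn3 (neuroligins) and Lrrtm1, Lrrtm2, Lrrtm3 and Lrrtm4 (leucine-rich repeat transmembrane proteins). The members were taken by symbol, and every one of the 9 had 1 TPM or more (the authors' transcript abundance, scaled to the library's total and per unit of transcript length) in 2 or more libraries, the filter that left 12975 genes for testing. Mouse embryonic stem (ES) cells were differentiated for 12 days as embryoid bodies, and the tdTomato+ neurons sorted from these were sequenced. Both lines came from a Dlx6-Cre; Ai9 parental ES cell line of C57/BL6 strain, in which Cre made in subpallial lineages switches on tdTomato. Both carried Nkx2-1 and the tTA activator under a Nestin promoter. The N/D line had Dlx2 on a TRE promoter, which tTA drives, and the N/D/S line had Dlx2 together with V5-tagged St18 there. The study's methods describe drug-selected, clonally expanded colonies, so a line may be a single clone, and all cells had been exposed to XAV-939 and SAG during differentiation. Each line gave 2 libraries, labelled replicate 1 and replicate 2. Nothing in the labels says that these came from separate cultures, so p-values measure only the spread between these libraries, which may be technical. Each adjusted p is limma's, with the Benjamini-Hochberg method over all 12975 genes.

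Neurexins are presynaptic cell surface proteins that hold on to postsynaptic partners across the synaptic cleft, and neuroligins and LRRTMs are among those partners. This contact helps to organise the presynaptic release site and the postsynaptic receptors, and neuroligins occur at excitatory and inhibitory synapses depending on the member. Cntnap2 (Caspr2) has an extracellular part related to that of the neurexins and binds contactin 2, with which it gathers potassium channels beside the node of Ranvier. Neurexins are made in long and short forms from separate promoters and are spliced extensively, so an RNA value per gene symbol does not tell these forms apart. The comparison of N/D/S with N/D asked which genes differ when St18 is supplied in addition to Nkx2-1 and Dlx2.

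The library labelled N/D replicate 1 stood apart. Of the genes tested, 42.1% were under 1 TPM there, against 2% to 10.7% in the other libraries, and 26.1% were listed at 0. Over the genes tested, which do not count as replicates, Pearson's r of log2(TPM + 1) was 0.73 to 0.757 for this library against the others and 0.876 to 0.947 among the others. In replicate order St18 stood at 28.5 and 26.6 TPM under the N/D label and at 44.4 and 15.9 TPM under the N/D/S label, so its level did not separate the lines and every direction below rests on the labels. The neuronal markers Tubb3, Map2, Rbfox3, Dcx, Stmn2 and Snap25 were all above 1 TPM in every library and summed to between 2962.2 and 4647.1 TPM. The same held for the 6 GABAergic markers, with sums of 391.9 to 987.4 TPM. In these sorted pools, fewer cells of a type and less RNA per cell cannot be told apart.

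The ends of the coding sequences show how the families differ at the tail that faces the cytoplasm, where neurexins and neuroligins carry a short ligand for PDZ domain scaffolds. For 8 of the 9 members, the last 30 bases of the coding sequence of the principal GENCODE M21 transcript (GRCm38) are shown 5′ to 3′, with the 12 bases before the stop codon in capitals.
Nrxn2: aagaacaaagacaaaGAGTATTACGTCtga
Nrxn3: aaaaacaaggacaagGAGTATTATGTGtaa
Cntnap2: gacgagagcaaaaagGAGTGGCTCATTtga
Nlgn1: ccccattcacattcaACAACCAGGGTAtag
Nlgn3: ccccactcacactccACTACCCGTGTAtag
Lrrtm1: cagcagcctgcgaggGAATGCGAGGTGtga
Lrrtm3: atcagtgaccataaaCCACAGCTGGCCtga
Lrrtm4: gccatttatctggagAGAATAACAAACtaa
Nrxn2 and Nrxn3 shared 10 of the 12 capital bases and 24 of the last 30, and Nlgn1 and Nlgn3 shared 9 of the 12 and 24 of the last 30. Over the whole coding sequence, Nrxn2 and Nrxn3 were 63.4% identical in a global alignment and Nlgn1 and Nlgn3 66%. Among the LRRTM genes the identity was 50.9% to 63.5%, highest for Lrrtm3 with Lrrtm4, although these shared only 2 of the 12 capital bases, while Lrrtm1 and Lrrtm2 (56.2% identical) shared 9 of the 12 and 19 of the last 30. Cntnap2 was 46.3% identical to Nrxn2 and 47.7% to Nrxn3.

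The presynaptic genes were among the higher members. Nrxn2 had 8.82 TPM in N/D replicate 1, 36.0 TPM in N/D replicate 2, 35.1 TPM in N/D/S replicate 1 and 28.5 TPM in N/D/S replicate 2. N/D replicate 1 was low, the other libraries lay close together, and the lines overlapped. Nrxn2 lies on the plus strand of chromosome 19 of GRCm38 from 6418731 to 6544169, has 18 annotated transcripts and shares part of this span with Slc22a12. On the log2(TPM + 1) scale its difference of N/D/S minus N/D was 0.78 (standard error 1.09, n = 2 and 2, limma adjusted p = 1). Without N/D replicate 1 it was −0.18. In that fit N/D rests on 1 library, assumed to vary like the N/D/S libraries, and the standard error of 1.15 is pooled and the same for every gene, so the values without N/D replicate 1 are given as sizes and signs.

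In the same order of replicates, Nrxn3 had 18.5 and 34.3 TPM in N/D and 61.0 and 4.97 TPM in N/D/S. Both the highest and the lowest library were N/D/S, 3.38 log2 units apart, while the N/D libraries were 0.85 apart. Nrxn3 spans 1612 kb on the plus strand of chromosome 12, from 88722876 to 90334935. Its fitted difference was −0.45 (standard error 1.33, limma adjusted p = 1), and −0.88 without N/D replicate 1. Leaving out N/D/S replicate 2, the library with the least Nrxn3, turned the sign to 1.24 (standard error 1.56).

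Cntnap2 had 12.4 and 43.6 TPM in N/D and 47.3 and 33.9 TPM in N/D/S. As for Nrxn2, N/D replicate 1 was the low library and the others lay close together. Cntnap2 has the longest span of the members, 2245 kb on the plus strand of chromosome 6 from 45059357 to 47304213, and 6 annotated transcripts. The fitted difference was 0.75 (standard error 1.07, limma adjusted p = 1), and −0.12 without N/D replicate 1. The ratio of Cntnap2 to Nrxn2 TPM within a library, examined after the values were seen, was 1.41 and 1.21 in N/D and 1.35 and 1.19 in N/D/S. The ratio of Nrxn3 to Nrxn2 TPM was 2.10 and 0.951 in N/D and 1.74 and 0.174 in N/D/S, so it was above 1 in both replicate 1 libraries and below 1 in both replicate 2 libraries.

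**Figure D1:**
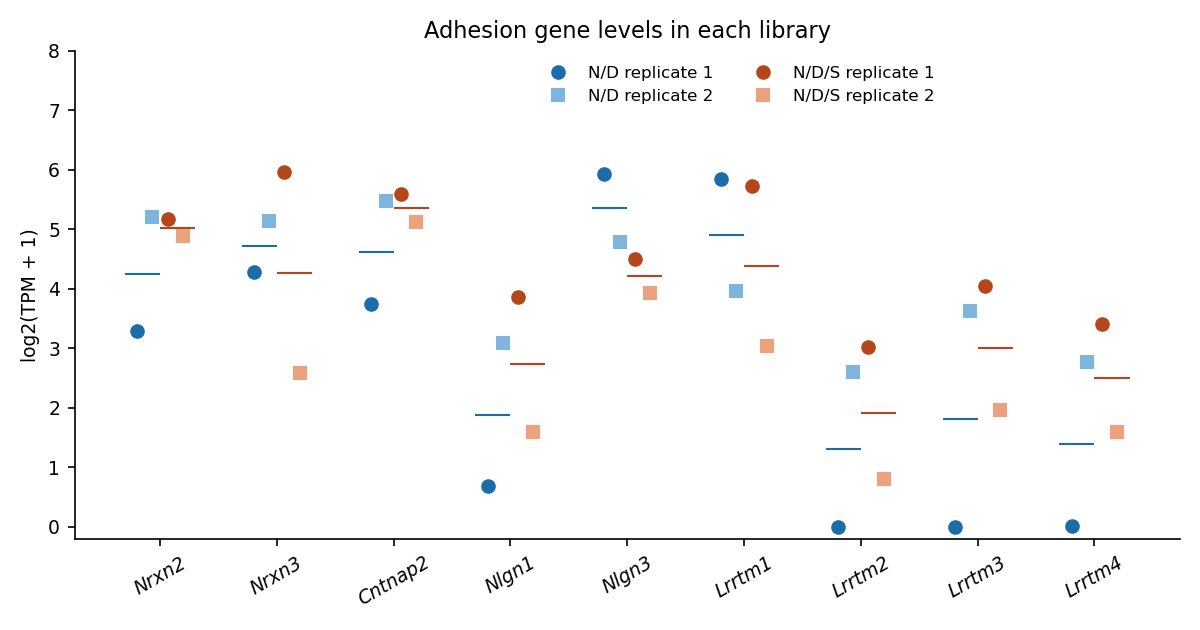
Level of each adhesion gene on the log2(TPM + 1) axis, with 1 point per library (circles for replicate 1, squares for replicate 2) and a short line at the mean of each line's 2 libraries. Nlgn3 is the only one of the 9 genes whose N/D/S points both lie under both N/D points, and Lrrtm2, Lrrtm3 and Lrrtm4 lie at or close to 0 in N/D replicate 1.

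The neuroligins differed from each other. Nlgn3, which occurs at excitatory and inhibitory synapses, had 59.7 and 26.5 TPM in N/D and 21.7 and 14.2 TPM in N/D/S. Both N/D/S libraries were below both N/D libraries, and no other member had lines that did not overlap. Of the 12975 genes tested, 8.23% had both N/D/S libraries below both N/D libraries and 8.69% had both above, so 1 of 9 is near the share in the whole table. Nlgn3 lies on the plus strand of chromosome X from 101299168 to 101325963, a span of 26.8 kb. Its fitted difference was −1.14 (standard error 1.01, limma adjusted p = 1) and −0.57 without N/D replicate 1. Within replicate numbers the difference was −1.42 and −0.86.

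Nlgn1, the neuroligin of excitatory synapses, had 0.608 and 7.46 TPM in N/D and 13.5 and 2.03 TPM in N/D/S. Its highest library was N/D/S replicate 1 and its lowest N/D replicate 1, and the lines overlapped. Nlgn1 spans 906.2 kb on the minus strand of chromosome 3 from 25426215 to 26332460. Its fitted difference was 0.85 (standard error 1.30, limma adjusted p = 1) and −0.35 without N/D replicate 1. Leaving out N/D/S replicate 1 instead gave −0.29. With quantile normalization the sign also turned, to −0.22 (standard error 0.75). Nlgn3 TPM exceeded Nlgn1 TPM in every library, with ratios of 98.2 and 3.55 in N/D and 1.60 and 6.99 in N/D/S, the highest of them in the library with 0.608 TPM of Nlgn1.

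LRRTMs are postsynaptic leucine-rich repeat proteins, of which Lrrtm1 and Lrrtm2 bind neurexins and Lrrtm4 also binds heparan sulfate proteoglycans. Lrrtm1 had 56.4 and 14.6 TPM in N/D and 52.1 and 7.22 TPM in N/D/S. Its replicate 1 libraries were high in both lines and its replicate 2 libraries low in both, and the lines overlapped. The N/D libraries were 1.88 log2 units apart and the N/D/S libraries 2.69, more than the fitted difference of −0.52 (standard error 1.29, limma adjusted p = 1). Without N/D replicate 1 it was 0.42, and without N/D/S replicate 2 it was 0.83.

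Lrrtm2, Lrrtm3 and Lrrtm4 had another pattern, in which the first N/D/S library was highest, the second N/D library next, the second N/D/S library after it, and the first N/D library at or near 0. Lrrtm3 was listed at 0 in N/D replicate 1 and had 11.3 TPM in N/D replicate 2, against 15.6 and 2.89 TPM in N/D/S. Lrrtm4 had 0.0049 and 5.84 TPM in N/D and 9.67 and 2.03 TPM in N/D/S. Lrrtm2, the lowest member by its mean, was listed at 0 in N/D replicate 1 and had 5.10 TPM in N/D replicate 2, with 7.13 and 0.75 TPM in N/D/S. Nlgn1 and Cntnap2 had the same order of libraries. The fitted differences were 1.20 for Lrrtm3 (standard error 1.47), 1.12 for Lrrtm4 (standard error 1.30) and 0.61 for Lrrtm2 (standard error 1.32), and the limma adjusted p was 1 for each. Without N/D replicate 1 all 3 turned to the other sign, at −0.61, −0.27 and −0.69, and Lrrtm2 did so too when N/D/S replicate 1 was left out, at −0.50. Without N/D replicate 2, which leaves the library that stood apart as the only N/D library, Lrrtm3 was at 3.01. This size rests on its value of 0 there. A value of 0 in files without counts can be a failed estimate, so differences that use the 0 of Lrrtm2 or Lrrtm3 are on the log2(TPM + 1) scale alone and give neither a fold nor a bound. In N/D replicate 1, 613 of the 6139 genes at 10 TPM or more in each other library were also listed at 0.

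Of the LRRTM genes, 3 are nested on the opposite strand of genes for alpha-catenins, the proteins that link cadherins to actin. Lrrtm1 (chromosome 6, plus strand, 77242689 to 77257791) lies inside Ctnna2, Lrrtm2 (chromosome 18, minus strand, 35209003 to 35215024) inside Ctnna1 and Lrrtm3 (chromosome 10, minus strand, 63928472 to 64090277) inside Ctnna3. Lrrtm4 (chromosome 6, plus strand, 80018877 to 80810143) lies in none of them. Of the annotated host transcripts, 0 of 8 of Ctnna2, 2 of 11 of Ctnna1 and 1 of 5 of Ctnna3 have an exon that overlaps the nested gene. The annotated exons of Lrrtm2 share 95 of 6022 bases with exons of Ctnna1, and those of Lrrtm1 and Lrrtm3 share 0 with exons of their hosts. Whether the libraries marked strand is not given in the sources used here, so reads from these 95 bases cannot be assigned to Lrrtm2 or Ctnna1. Ctnna2 had 88.7 and 78.5 TPM in N/D and 103.9 and 34.1 TPM in N/D/S, and the ratio of Lrrtm1 to Ctnna2 TPM was 0.636 and 0.186 in N/D and 0.501 and 0.212 in N/D/S. Ctnna1 was listed at 0 in N/D replicate 1, as was its nested gene Lrrtm2, and had 23.2 TPM in N/D replicate 2 and 27.3 and 17.9 TPM in N/D/S. Ctnna3 was at most 0.162 TPM in any library while Lrrtm3 reached 15.6 TPM. Ctnna1 and Ctnna2 did not pass the test, Ctnna3 was too low to be tested, and the lines overlapped for each host.

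None of the 9 adhesion genes passed an adjusted p of 0.05 in limma, and neither did any of the 12975 genes tested, a share of 0%. At an unadjusted p under 0.05 the counts were 0 of 9 members and 8 of 12975 genes, 0.0617%. Without N/D replicate 2, N/D rested on the library that stood apart. The median difference was then 1.73 over the members and 0.88 over all genes tested, given as sizes. The members' unadjusted p from limma ranged from 0.298 for Nlgn3 to 0.746 for Nrxn3. In 8 of the 9, the difference between the lines was smaller than its standard error and than the residual standard deviation between libraries of a line. With 2 libraries a line, a two-sided exact permutation test of a single gene cannot give a p under 0.333. The median fitted difference was 0.75 over the members and 0.26 over all genes tested, with 6 members above 0 and 3 below. Without N/D replicate 1 these medians were −0.35 and −0.29.

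Within replicate numbers the members' directions differed. The number is not taken to pair the libraries, whose deviations had a correlation of 0.0197 between same-numbered libraries over genes. Each replicate 1 difference is taken from N/D replicate 1, the library that stood apart. In replicate 1, 7 of the 9 genes were higher in N/D/S, with a median difference of 1.88 on the log2(TPM + 1) scale, and in replicate 2 all 9 were lower in N/D/S, with a median of −1.17. The same was common in the whole table, where 72.5% of genes tested were higher in N/D/S in replicate 1 and 74.7% were lower in replicate 2, with medians of 1.14 and −0.62. Nlgn3 and Lrrtm1 were lower in N/D/S in both, 22.2% of the members against 17.9% of all genes tested, although the Lrrtm1 difference in replicate 1 was only −0.11. No member was higher in N/D/S in both, against 15.9% of all genes tested. The median residual standard deviation was 1.65 log2 units for the members and 1.03 for all genes tested.

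**Figure D2:**
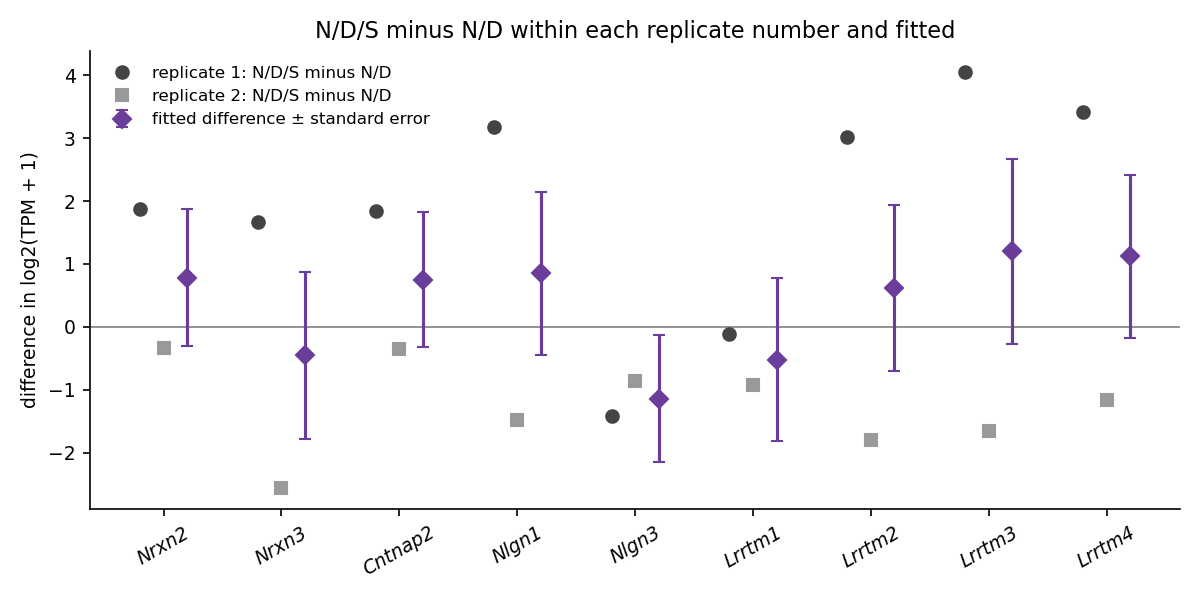
Difference of N/D/S minus N/D in log2(TPM + 1) for each gene within replicate 1 (circles), within replicate 2 (squares) and as fitted (diamonds with bars of 1 standard error). Of the 9 genes, 7 have a circle above 0 and all 9 have a square below 0, and Nlgn3 is the only gene with the bar of 1 standard error clear of 0. The circles of Lrrtm2 and Lrrtm3 rest on a value listed at 0 in N/D replicate 1.

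The levels of the members were then put in order by their means. In N/D the order of mean TPM was Nlgn3 (43.1 ± 23.5, SD, n = 2), Lrrtm1 (35.5 ± 29.5), Cntnap2 (28.0 ± 22.1), Nrxn3 (26.4 ± 11.1), Nrxn2 (22.4 ± 19.3), Lrrtm3 (5.63 ± 7.96), Nlgn1 (4.03 ± 4.84), Lrrtm4 (2.92 ± 4.12) and Lrrtm2 (2.55 ± 3.60). In N/D/S it was Cntnap2 (40.6 ± 9.50), Nrxn3 (33.0 ± 39.6), Nrxn2 (31.8 ± 4.71), Lrrtm1 (29.7 ± 31.7), Nlgn3 (17.9 ± 5.34), Lrrtm3 (9.27 ± 9.02), Nlgn1 (7.78 ± 8.14), Lrrtm4 (5.85 ± 5.41) and Lrrtm2 (3.94 ± 4.51). Every pair of neighbours in either order had overlapping ranges. Within single libraries the order was steadier at the low end, where Lrrtm2 was last in every library, level with Lrrtm3 at 0 in N/D replicate 1. Lrrtm3, Nlgn1, Lrrtm4 and Lrrtm2 ranked from 6 to 9 in each library, and the other 5 genes from 1 to 5.

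Together the 9 genes summed to 156.5 and 184.7 TPM in N/D and 263.2 and 96.4 TPM in N/D/S. The highest and the lowest sum were again both N/D/S. Nrxn2, Nrxn3 and Cntnap2 made up 25.4% of the sum in N/D replicate 1 and 54.5% to 69.8% in the other libraries. Nlgn3 and Lrrtm1 together carried most of it in N/D replicate 1, at 38.2% and 36%. In N/D replicate 2 they had 14.3% and 7.92%, and in N/D/S replicates 1 and 2 Nlgn3 had 8.25% and 14.7% and Lrrtm1 19.8% and 7.49%. The share of the LRRTMs was 36% and 19.9% in N/D and 32.1% and 13.4% in N/D/S, higher in both replicate 1 libraries, as was their most abundant gene Lrrtm1.

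**Figure D3:**
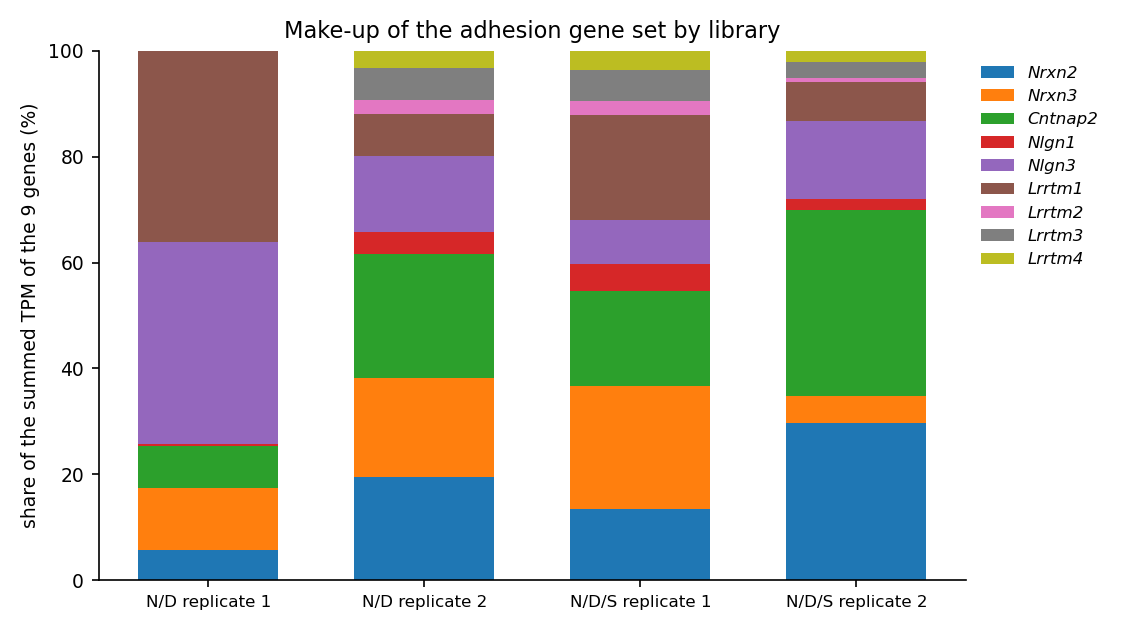
Share of the summed TPM of the 9 genes taken by each gene, in percent, 1 bar per library, with each bar adding up to 100%. Nlgn3 and Lrrtm1 fill most of the N/D replicate 1 bar, while Nrxn2, Nrxn3 and Cntnap2 hold between 54.5% and 69.8% of the others.

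Many of these genes are long, so their values were set against the span of the gene in GENCODE M21, from first to last annotated base. Cntnap2 ranked 5, Nrxn3 10, Nlgn1 61 and Lrrtm4 77 by span among the 12849 tested genes with a single annotated position. These 4 span over 500 kb, Lrrtm3 161.8 kb and Nrxn2 125.4 kb, while Nlgn3 (26.8 kb), Lrrtm1 (15.1 kb) and Lrrtm2 (6.022 kb) are near or below the median of 22.9 kb. The fitted difference was not ordered by span in the whole table, with medians of 0.24 for 9276 genes under 50 kb, 0.29 for 2817 genes of 50 to 200 kb, 0.27 for 579 genes of 200 to 500 kb and 0.21 for 177 genes of 500 kb and over. Within replicate 1 the medians were 0.97, 1.55, 1.52 and 1.69 from the shortest to the longest class, and within replicate 2 they were −0.45, −0.99, −1.07 and −1.15. In N/D replicate 1 the median level was 8.76 TPM in the shortest class and 0.762 TPM in the longest, against 22.3 and 7.82 TPM in N/D replicate 2, 24.3 and 9.67 TPM in N/D/S replicate 1 and 14.2 and 2.86 TPM in N/D/S replicate 2. The members over 500 kb differed by 1.67 (Nrxn3), 1.85 (Cntnap2), 3.18 (Nlgn1) and 3.41 (Lrrtm4) in replicate 1 and by −2.56, −0.36, −1.48 and −1.17 in replicate 2. Lrrtm2, the shortest member, differed by −1.80 in replicate 2. In replicate 1 it was set against a library in which it was listed at 0, as was Lrrtm3. Nlgn3 and Lrrtm1, the other short members, were the genes lower in N/D/S in replicate 1. The replicate 1 differences all take N/D replicate 1, the library that stood apart, as their N/D value. Any part of gene length in these differences was not tested.

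**Figure D4:**
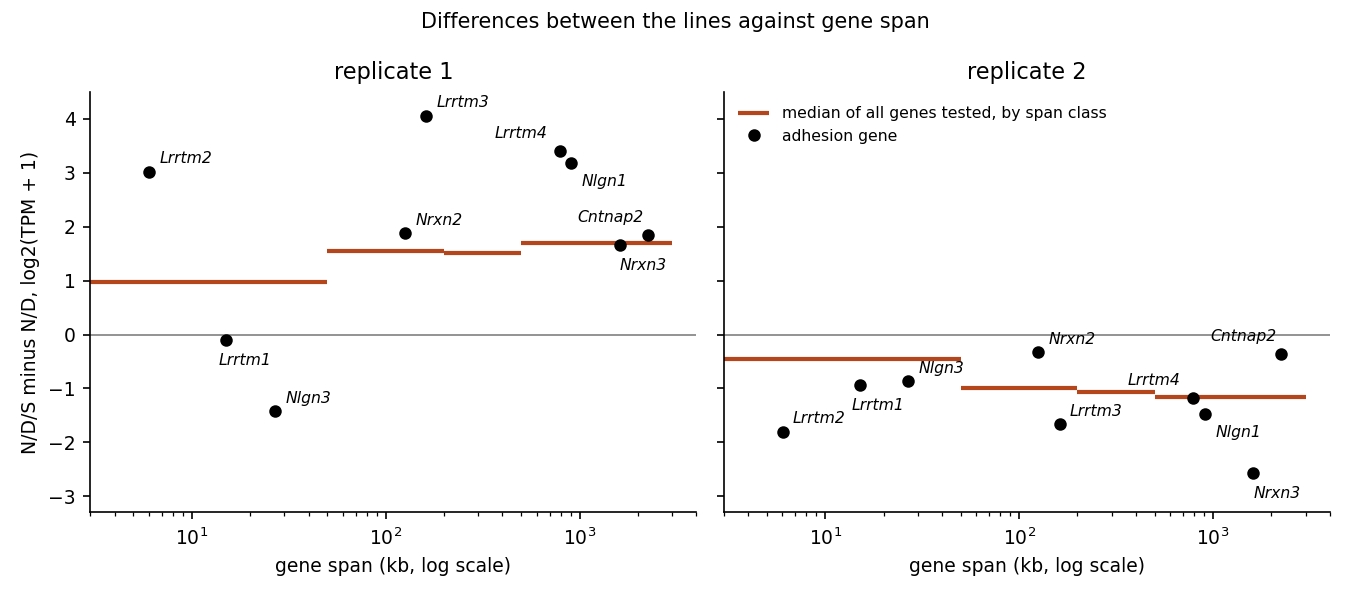
Difference of N/D/S minus N/D in log2(TPM + 1) against gene span in kb on a log axis, for replicate 1 (left) and replicate 2 (right), with black points for the 9 genes and bars for the median of all tested genes in each span class. The bars of the shortest and longest class lie at 0.97 and 1.69 in replicate 1 and at −0.45 and −1.15 in replicate 2.

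Genes that act with the members were taken from lists of 85 genes, of which 71 were tested and 0 passed an adjusted p of 0.05 in limma. At an unadjusted p under 0.05 the count was also 0, with a lowest p of 0.112 from limma. The fitted difference was above 0 for 49 and below 0 for 22, with a median of 0.39 against 0.26 for all genes tested. Both N/D/S libraries lay above both N/D libraries for 5 of the 71 (7.04%, against 8.69% of all genes tested) and below for 2 (2.82%, against 8.23%). Among 18 tested ligands and bridging proteins of the cleft, 11 were above 0 and 7 below. Cbln2, a cerebellin that bridges neurexins to postsynaptic receptors, had 140.7 and 19.6 TPM in N/D and 60.6 and 3.80 TPM in N/D/S, high in both replicate 1 libraries like Lrrtm1. Clstn3, a calsyntenin, had 14.4 and 65.8 TPM in N/D and 71.7 and 54.3 TPM in N/D/S, low only in N/D replicate 1 like Nrxn2 and Cntnap2. The lines were apart under every scaling for Adgrl3, a latrophilin, with 49.3 and 16.0 TPM in N/D and 14.7 and 3.89 TPM in N/D/S. The same held for C1ql2, a neurexin ligand of the C1q family, which was listed at 0 and had 1.54 TPM in N/D and 7.40 and 3.26 TPM in N/D/S. Their fitted differences were −1.74 (standard error 1.13) for Adgrl3 and 1.91 (standard error 1.05) for C1ql2, and the limma adjusted p was 1 for both. Without N/D replicate 1 they were −0.96 and 1.24. The share of all genes tested that were apart under every scaling was not computed, and the 0 of C1ql2 can be a failed estimate.

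Of 24 other transsynaptic organisers tested, 18 were above 0 and 6 below. Both N/D/S libraries lay above both N/D libraries as deposited for 2 of the 24, or 8.33%, against 8.69% of all genes tested. These were Lrfn1 and Lrfn2, named after their values were seen, and neither was apart under every scaling. The same held for Cbln1 and C1ql1 among the ligands. Lrfn1 had 0.0272 and 24.0 TPM in N/D and 24.9 and 40.9 TPM in N/D/S, and Lrfn2 was listed at 0 and had 0.867 TPM in N/D and 1.12 and 4.30 TPM in N/D/S. Cadm1, a synaptic immunoglobulin protein, had 105.7 and 235.2 TPM in N/D and 168.1 and 69.7 TPM in N/D/S, and Ptprs, a receptor phosphatase that binds several postsynaptic organisers, had 43.8 and 163.5 TPM in N/D and 237.4 and 104.3 TPM in N/D/S. Both had overlapping lines. Of 16 cytoplasmic scaffolds, 12 were above 0 and 4 below. In 0 of them were the lines apart, against 8.69% of all genes tested with N/D/S above and 8.23% with N/D/S below. Apba2 (Mint2), which binds neurexin tails, had 7.28 and 83.1 TPM in N/D and 145.1 and 46.3 TPM in N/D/S, and Lin7c, a partner of Apba and Cask proteins, had 20.1 and 60.6 TPM in N/D and 75.2 and 25.7 TPM in N/D/S. Khdrbs3, a splicing factor that acts on neurexin transcripts, had 193.3 and 254.1 TPM in N/D and 377.3 and 95.1 TPM in N/D/S, and Khdrbs1 had 101.5 and 87.2 TPM in N/D and 109.2 and 37.0 TPM in N/D/S. Of the partners of Cntnap2, Epb41l3, a protein 4.1 that binds its tail, had 0.0351 and 31.6 TPM in N/D and 38.2 and 12.5 TPM in N/D/S, and Cntn1 had 8.42 and 18.9 TPM in N/D and 23.6 and 4.27 TPM in N/D/S. The order of libraries seen in Lrrtm2, Lrrtm3, Lrrtm4, Nlgn1 and Cntnap2 was also that of Clstn3, Ptprs, Apba2, Lin7c and Epb41l3. Its ends were common in the whole table, where 58.2% of genes tested were lowest in N/D replicate 1 and 38.7% highest in N/D/S replicate 1. Cntnap4, a relative of Cntnap2, was listed at 0 and had 9.62 TPM in N/D and 5.87 and 2.47 TPM in N/D/S, and Mdga2, which blocks neuroligins from binding neurexins, had 0.222 and 8.84 TPM in N/D and 8.54 and 5.36 TPM in N/D/S. In both, N/D replicate 1 was the lowest library and N/D replicate 2 the highest.

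**Figure D5:**
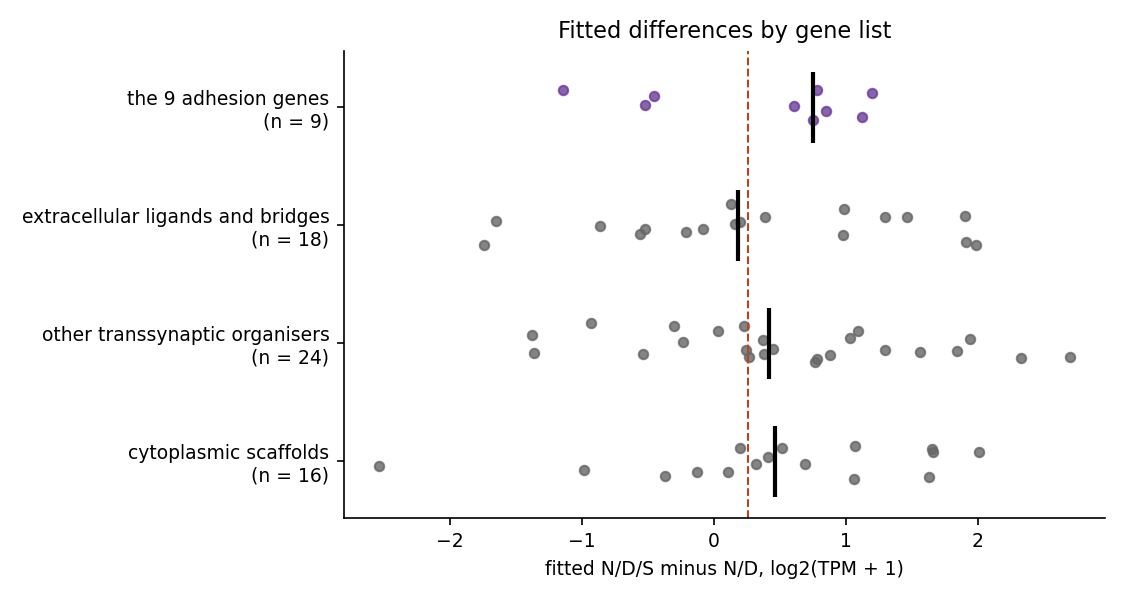
Fitted difference of N/D/S minus N/D in log2(TPM + 1) for the 9 adhesion genes and the tested genes of 3 lists, 1 point per gene with vertical scatter for legibility, a black bar at each median and a dashed line at 0.26, the median of all genes tested. Each list spreads to both sides of 0, and none of the points passed the test.

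The list genes with profiles nearest to the members' median profile over the 4 libraries were Lrfn5, Cntn2 and Il1rapl1, at Euclidean distances of 0.33, 0.44 and 0.59 log2 units after each profile was centred on its mean. Lrfn5 had 1.45 and 8.30 TPM in N/D and 11.9 and 1.95 TPM in N/D/S. Among the members, Nlgn1 at 0.33 and Lrrtm2 at 0.45 were nearest to that median profile, and Lrrtm1 at 3.02 and Nlgn3 at 3.08 were farthest. With 4 libraries, of which 1 stands apart, this likeness describes these libraries alone.

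Marker lists of other cells also differed between libraries, not all in the same way as the adhesion genes. The 5 oligodendrocyte lineage markers were all listed at 0 in N/D replicate 1 and summed to 173.3 TPM in N/D replicate 2 and to 17.1 and 56.3 TPM in N/D/S. The 4 pluripotency markers summed to 0.247 and 184.0 TPM in N/D and 3.50 and 290.5 TPM in N/D/S, with 3 of them at 0 in N/D replicate 1, so both replicate 2 libraries were high. Dppa5a carried most of this, with 164.2 TPM in N/D replicate 2 and 265.5 TPM in N/D/S replicate 2. Pou5f1, Nanog and Zfp42 were also higher in both replicate 2 libraries, at 19.5 TPM or less. Astrocyte markers summed to 0.0807 and 35.2 TPM in N/D and 6.45 and 25.0 TPM in N/D/S, with Gfap, Aqp4 and Aldh1l1 at 0 in N/D replicate 1, and fibroblast markers to 0.0778 and 36.4 TPM in N/D and 7.25 and 24.0 TPM in N/D/S. Glutamatergic markers summed to 17.3 and 3.17 TPM in N/D and 19.0 and 1.27 TPM in N/D/S. Slc17a6 carried most of that sum (13.8 and 2.44 TPM in N/D, 18.4 and 0.727 TPM in N/D/S), while Slc17a7 and Tbr1 were listed at 0 in N/D replicate 1 and at most 0.52 TPM elsewhere, and Neurod6 was above 1 TPM only in N/D replicate 1, at 3.53 TPM. Neural progenitor markers summed to 188.4 to 310.9 TPM, with Vim the highest of them in each library, and Hes5 and Mki67 were listed at 0 in N/D replicate 1. Hes5 had 22.6 TPM in N/D replicate 2 and 61.8 and 69.2 TPM in N/D/S. Endothelial markers summed to 38.8 TPM in N/D replicate 1, from Pecam1 with Cldn5 listed at 0 and Kdr at 0.0105 TPM, and to 2.89 to 8.06 TPM in the others. Immune markers summed to at most 0.128 TPM. Their part in the values of the adhesion genes was not tested.

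St18 belongs to the MYT1 family, whose zinc fingers bind DNA with an AAGTT core, so the RefSeq promoters of the members (GRCm38.p6, 250 bases before to 50 after a start) were searched for AAGTT on both strands. The promoter table matched 6 of the 9 genes with 11 promoters, those of Nrxn3, Cntnap2, Nlgn1, Lrrtm1, Lrrtm3 and Lrrtm4. Of these 11, 5 held the core, against 39.3% of 32851 promoters of the same length, and 0 held the longer AAAGTTT, which contains the core, against 4.74%. Promoters of 2 genes with different patterns, Lrrtm1 (high in both replicate 1 libraries) and Lrrtm4 (near 0 in N/D replicate 1), are shown 5′ to 3′ with each match (AAGTT, or AACTT for the other strand) in capitals.
Lrrtm1, chr6:77242227-77242526, plus strand: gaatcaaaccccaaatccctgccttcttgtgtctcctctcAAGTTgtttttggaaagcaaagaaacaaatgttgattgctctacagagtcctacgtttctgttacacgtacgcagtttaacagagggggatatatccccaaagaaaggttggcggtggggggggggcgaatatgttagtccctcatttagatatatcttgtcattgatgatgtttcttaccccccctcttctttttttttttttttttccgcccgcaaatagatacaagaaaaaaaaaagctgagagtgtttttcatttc
Lrrtm4, chr6:80018627-80018926, plus strand: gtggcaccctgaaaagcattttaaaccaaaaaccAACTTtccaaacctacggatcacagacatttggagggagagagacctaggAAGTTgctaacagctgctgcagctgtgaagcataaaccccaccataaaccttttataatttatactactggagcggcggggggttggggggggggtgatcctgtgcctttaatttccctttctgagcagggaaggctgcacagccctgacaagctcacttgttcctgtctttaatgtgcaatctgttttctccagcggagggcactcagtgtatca
The Lrrtm1 promoter, the only one of this gene in the table, held 1 match. The Lrrtm4 promoter shown held 2, and the second promoter of Lrrtm4, which starts further into the gene and is not shown, held 1. A match is a run of letters in this window and was not tested for binding.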

How the data were processed

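Bulk poly-A RNA-seq of sorted tdTomato+ neurons was analysed, with 2 libraries of the N/D line and 2 of the N/D/S line. The authors deposited 1 file per library with a TPM value for each gene symbol, made by pseudoalignment with kallisto 0.44.0 to a mouse transcriptome index (GRCm38 in the submitters' processing notes). The transcriptome release, the way transcripts were combined into genes and any scaling between libraries are not given in the sources used here. TPM keeps no counts, so the depth behind each value is unknown and neither intervals nor limits of detection could be set.

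Files were joined on symbol after 24 symbols turned into dates were left out. Genes at 1 TPM or more in 2 or more libraries entered the test with limma 3.58.1 in R 4.3.3 on log2(TPM + 1), N/D/S minus N/D, without covariates, with Benjamini-Hochberg adjustment over all 12975 genes and a threshold of 0.05. Differences on this scale understate those of low genes. The test was also checked on simulated data, drawn independently for each gene and with no library that stood apart. There it found large known differences when the simulated spread was small and none of them at the spread of these libraries. A count of 0 therefore does not show that the lines are alike. Sleuth, the study's tool, needs files not used here. The members and lists were chosen with earlier results of these data known. Named are all 9 members, the alpha-catenin hosts, the 2 highest genes of each partner list, list genes whose lines were apart under every scaling, and the 3 nearest profiles. This rule also reached 2 further neurexin and neuroligin genes, which are counted in the lists and not reported singly here. Positions, transcripts and coding ends came from GENCODE M21 (GRCm38), and promoters from RefSeq. Coding sequences were aligned globally with Biopython 1.88. Alternatives were other pseudocounts, filters and scalings, a variance trend, the natural log, the replicate block and leaving out each library.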

Additional observations from a re-analysis of the deposited data

How the results depend on the processing

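Of 122 alternative values of single genes, 109 stayed on the same side of 0 and of the threshold, 12 turned to the other sign and 1 newly passed it. The causes were not tested. Nlgn3 went from −1.71 to −0.57 with a library left out, where its sign could not turn because its lines did not overlap. With 1 library left out, Nrxn2 ranged from −0.18 to 1.73, Nrxn3 from −2.14 to 1.24, Cntnap2 from −0.12 to 1.62, Nlgn1 from −0.35 to 2.04, Lrrtm1 from −1.86 to 0.83, Lrrtm2 from −0.69 to 1.92, Lrrtm3 from −0.61 to 3.01 and Lrrtm4 from −0.27 to 2.50. With quantile normalization Nlgn1 was at −0.22. Members past the threshold numbered 0 under every alternative except without N/D replicate 2, where Lrrtm3, at 3.01, was the gene that newly passed. In that fit, 2373 of all genes passed (range 0 to 2373), where every gene had the same standard error and the lone N/D library, the one that stood apart, was assumed to vary like the N/D/S libraries. A variance trend gave 6 genes, none a member, and every other alternative 0. The median of the members was −0.45 when each library had to reach 1 TPM, which left 5 members, and went from −0.35 to 1.73 with 1 library left out. Quantile normalization moved the median of all genes from 0.26 to −0.05 and that of the members from 0.75 to 0.02. With the replicate block the count stayed at 0 and no member changed side of the threshold. Libraries with the same number had a correlation of deviations of 0.0197 over genes, so the number is not taken to pair them. TPM holds no depth, and its effect on the low values was not tested.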
